A study of Gallus gallus with 32 samples.

Results

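Dietary arginine at the highest added dose was compared with no added arginine in the liver of meat chickens of the Arbor Acres strain. The livers of birds given 18 g/kg of added arginine gave 8 libraries, and the livers of control birds given 0 g/kg gave 8 libraries. The comparison uses 16 of the 32 liver libraries, and the libraries at 1.8 and 9 g/kg served only to place the highest dose. Genes were taken where the 16 libraries averaged 1 TPM or more, which left 11348 of the 25619 genes in the table. TPM is a length-corrected share of a library's transcripts, so a gain in some genes lowers the values of the others. The labels give neither age nor sex nor the hour of sampling, and nothing in them ties each library to a bird of its own. P-values therefore measure the spread between these libraries.

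Arginine is an essential amino acid in birds, whose liver lacks a working urea cycle. It is the precursor of ornithine and proline, of polyamines, of creatine and of nitric oxide. Birds discard nitrogen as uric acid, which is built along the purine pathway and finished by xanthine dehydrogenase. In the chicken, the liver is also the main site of fatty acid synthesis, and the study's title names lipid metabolism as its subject.

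The tissue label fitted the data. Albumin (ALB) was between 53500 and 101051 TPM in the libraries at 18 g/kg (median 75792), against 50284 to 118995 TPM in control (median 95594). The entry steps of the urea cycle were near or at 0 in both groups. CPS1, carbamoyl-phosphate synthase, had a median of 0.57 TPM at 18 g/kg and 0.635 TPM in control. OTC, ornithine transcarbamylase, was listed at 0 in every library at 18 g/kg and reached 0.06 TPM in control. Tested genes of the pancreatic acinar list, which would mark attached pancreas, numbered 0, and the summed level of its 10 genes in the table was at most 0.33 TPM at 18 g/kg and 0.44 TPM in control.

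Libraries at 18 g/kg had between 10525 and 11493 genes at 1 TPM or more, and control libraries 10722 to 11335. The sequencing depth is unknown, because only TPM were given. Control replicate 7 stood apart from the other control libraries, with a mean correlation of 0.911 with its own group on the log2 scale, where the group medians were 0.944 at 18 g/kg and 0.939 in control. Control replicates 1 and 3 came next, at 0.926 and 0.928, while the lowest library at 18 g/kg had 0.938. The W-linked transcript HINTW, which only hens carry, was below 1 TPM in 5 libraries at 18 g/kg and in 6 control libraries. In bulk tissue, fewer cells of a type and less RNA per cell cannot be told apart.

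The first question was which liver genes differ at 18 g/kg. No gene passed the test. With limma on log2(TPM + 1), 0 of 11348 genes (0.0%) reached an adjusted p under 0.05, and the lowest adjusted p was 0.9998. At an unadjusted p below 0.05 there were 195 genes (1.72%) with a difference above 0 and 91 genes (0.802%) with a difference below 0, together 286 (2.52%). This joint share is lower than the threshold itself would give on average if no gene differed. Of the tested genes, 6303 (55.5%) had a difference above 0 without any test, and the median over all genes was 0.02 log2. After median-ratio rescaling, which sets the typical gene level with itself across libraries, 49.2% were above 0. The scaling thus decides which direction holds more genes.

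The differences themselves were small on the log2(TPM + 1) scale. The added 1 TPM draws the differences of genes at low TPM toward 0. With 0.1 TPM added instead, the clock gene NPAS2 differed by 1.09, against 0.66, while ALB stayed at -0.23. The quartiles of the differences were -0.08 and 0.12 log2, and the outer 5% on each side began at -0.27 and 0.35. The 95% interval of the difference lay within 1 log2 unit of 0 on both sides for 10362 genes (91.3%), and within 0.5 log2 units for 6642 genes (58.5%). A difference of 1 log2 unit or more was seen in 52 genes, 26 in each direction. Of these 52, 19 are protein-coding in the RefSeq table and 14 are ribosomal RNA, and 30 were listed at 0 TPM in at least 4 of the 16 libraries.

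**Figure D1:**
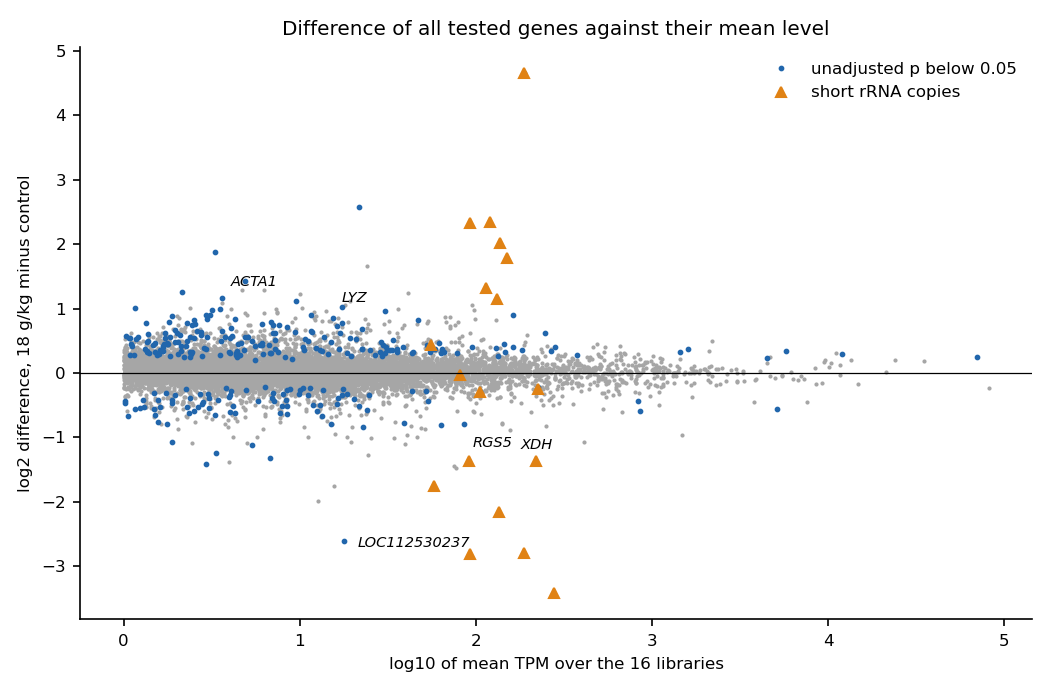
Log2 difference (18 g/kg minus control) of the 11348 tested genes against the log10 of their mean TPM over 16 libraries. Blue points had an unadjusted p below 0.05 and orange triangles are the 18 short ribosomal RNA copies. Most genes sit close to 0, and the ribosomal RNA copies reach 4.66 and -3.42.

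The gene with the clearest separation was LYZ, lysozyme C, an antibacterial enzyme that macrophages make. LYZ had 16.3, 19.0 and 25.1 TPM (lowest, median and highest) at 18 g/kg, against 3.87, 11.9 and 16.1 TPM in control. The groups did not overlap, which held for 1 of the 11348 genes (0.00881%). Over that many genes, 1 such gene can arise without any difference between the diets. Its log2 difference was 0.85 ± 0.21 (SE), between 0.67 and 0.93 with any 1 library left out, and its adjusted p in limma was 0.9998. At the other added doses LYZ had medians of 11.4 TPM (1.8 g/kg) and 13.0 TPM (9 g/kg), and at 9 g/kg its mean of 43.1 TPM came with an SD of 83.1. Summed macrophage and Kupffer cell markers, of which LYZ is one, ran from 471 to 2563 TPM at 18 g/kg, against 550 to 2704 TPM in control.

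Among the 10 genes with the smallest unadjusted p above control were DNMT3A, GATC and CD55, none of which passed. DNMT3A, which places new methyl marks on DNA, had 4.83, 7.5 and 8.45 TPM at 18 g/kg, against 4.03, 4.88 and 6.14 TPM in control (0.43 ± 0.11). GATC, a subunit of the enzyme that makes glutaminyl-tRNA in mitochondria, had 26.9, 35.1 and 38.5 TPM at 18 g/kg, against 18.2, 25.3 and 33.2 TPM in control (0.43 ± 0.12). All 8 libraries at 18 g/kg were above the control mean for GATC, a count reached by 84 genes (0.74%), and for DNMT3A 7 of 8 were. CD55, which protects cells from complement, had 3.68, 5.16 and 6.29 TPM at 18 g/kg, against 1.82, 2.77 and 5.18 TPM in control (0.55 ± 0.15, 8 of 8). The groups overlapped for all 3 genes.

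Other genes of this set have no symbol. LOC107048987, a protein-coding gene, was the most abundant of them, with 147, 182 and 239 TPM at 18 g/kg against 114, 140 and 163 TPM in control (0.40 ± 0.11). The long non-coding RNA LOC124417870 had 3.06, 6.88 and 12.3 TPM at 18 g/kg, against 0.0, 2.6 and 5.14 TPM in control (1.43 ± 0.37). The long non-coding RNA LOC121113083 had 0.66, 1.82 and 3.47 TPM at 18 g/kg, against 0.0, 0.245 and 1.94 TPM in control (1.01 ± 0.25). It averaged 0.459 TPM in control and passed the filter only through the libraries at 18 g/kg, so a difference was set by that choice. All of them overlapped with control.

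Below control, the gene with the smallest unadjusted p was the small nucleolar RNA LOC112530237, with 0.0, 7.6 and 10.3 TPM at 18 g/kg, against 8.94, 31.3 and 60.3 TPM in control (-2.61 ± 0.64). Such RNAs usually carry no poly(A) tail and the libraries were poly(A)-selected, so the row is uncertain. PIKFYVE, the lipid kinase that makes PI(3,5)P2 on endosomes, had 3.9, 6.5 and 10.1 TPM at 18 g/kg, against 6.26, 10.1 and 16.2 TPM in control (-0.64 ± 0.19). All 8 libraries at 18 g/kg were below the control mean for PIKFYVE, a count reached by 225 genes (1.98%), and the groups overlapped. That mean is taken in TPM, so 1 high control library raises it and makes 8 of 8 below easier to reach.

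The same count of 8 of 8 was found for IP6K1, MMP24 and TMEM132A. IP6K1, a kinase that makes inositol pyrophosphates, had 4.96, 6.02 and 6.36 TPM at 18 g/kg, against 5.86, 7.95 and 11.2 TPM in control (-0.38 ± 0.12). MMP24, a membrane-bound metalloproteinase, had 2.6, 3.3 and 4.41 TPM at 18 g/kg, against 3.3, 4.54 and 6.07 TPM in control (-0.38 ± 0.12). TMEM132A had 1.94, 2.28 and 2.52 TPM at 18 g/kg, against 1.9, 3.25 and 3.94 TPM in control (-0.32 ± 0.11), and ENKD1 differed by -0.48 ± 0.15. The long non-coding RNA LOC107054117 had 0.14, 0.49 and 2.04 TPM at 18 g/kg, against 0.18, 3.04 and 16.3 TPM in control (-1.41 ± 0.46). Its mean of 0.709 TPM at 18 g/kg means that it passed the filter only through control. The ranges of all 5 genes overlapped between the groups, and none passed.

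**Figure D2:**
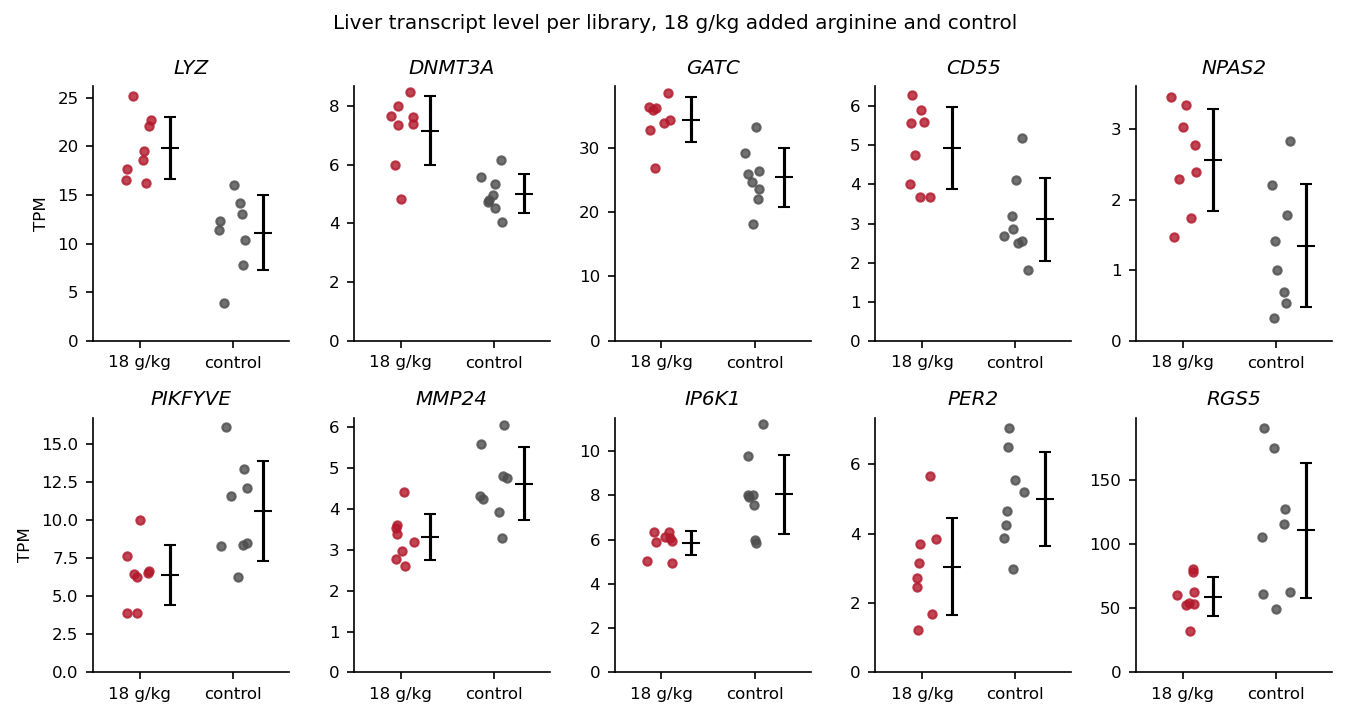
TPM per library of 10 genes, with 18 g/kg (red) left of control (grey), 8 points a group, and the mean with its SD beside the points. LYZ points do not overlap between the groups, and the other 9 genes overlap.

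Genes that handle arginine itself came next. Of 31 listed genes of arginine, ornithine and proline metabolism, 24 were in the table and 18 were tested. Their median difference was 0.11 log2, beside 0.02 for all tested genes, with 11 above 0 and 7 below. The median was -0.01 when 18 g/kg replicate 8 was left out and 0.16 when control replicate 8 was. AGMAT was the 1 of these 18 genes with an unadjusted p below 0.05, beside 2.52% of all tested genes.

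AGMAT, agmatinase, which splits agmatine into putrescine and urea, had 84.5, 104 and 146 TPM at 18 g/kg, against 61.5, 68.3 and 132 TPM in control. All 8 libraries at 18 g/kg were above the control mean, yet the ranges overlapped (0.40 ± 0.16, limma, unadjusted p = 0.0249). Its mean was 121 TPM at 1.8 g/kg and 140 TPM at 9 g/kg, so the level at 18 g/kg lay below that at both lower doses and above control. ASL, argininosuccinate lyase, which releases arginine, had 1.13, 2.29 and 8.33 TPM at 18 g/kg, against 0.53, 1.35 and 3.58 TPM in control (0.59 ± 0.29). ASS1, the enzyme before it, had 12.8, 18.1 and 57.5 TPM at 18 g/kg, against 8.19, 14.2 and 43.6 TPM in control (0.34 ± 0.33). The groups overlapped widely for both genes.

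The remaining arginine genes gave values of both signs. GLS2, a mitochondrial glutaminase, had 4.69, 8.34 and 11.2 TPM at 18 g/kg, against 4.93, 6.52 and 8.59 TPM in control (0.30 ± 0.16). PYCR1, the last step of proline synthesis, had 6.8, 13.2 and 52.1 TPM at 18 g/kg, against 10.4, 28.1 and 47.7 TPM in control (-0.64 ± 0.42). The mitochondrial ornithine carrier SLC25A15 differed by 0.39 ± 0.27, and the inducible nitric oxide synthase NOS2 by 0.17 ± 0.13 at a median of 1.54 TPM at 18 g/kg and 1.25 TPM in control. ARG2, the mitochondrial arginase, did not reach the filter, with medians of 0.33 TPM at 18 g/kg and 0.59 TPM in control.

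Polyamine and creatine genes split evenly. Of 14 tested genes, 7 were above 0 and 7 below, with a median of 0.00 and no member with an unadjusted p below 0.05. PAOX, a polyamine oxidase, differed by 0.22 ± 0.13, spermine synthase SMS by 0.15 ± 0.13 and spermidine synthase SRM by 0.10 ± 0.21. The row named ODC, which was chosen after its values were seen and was in no list, had 7.17, 12.5 and 21.9 TPM at 18 g/kg, against 6.73, 9.84 and 26.0 TPM in control (0.11 ± 0.25). GATM, which takes the amidino group from arginine to start creatine synthesis, had 30.4, 262 and 915 TPM at 18 g/kg, against 18.6, 206 and 418 TPM in control. Its spread within each group was large enough that the 95% interval of the difference ran from -1.01 to 1.85 log2.

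Purine and uric acid genes had a median of -0.04 log2, with 9 of 21 tested genes above 0. XDH, xanthine dehydrogenase, which makes uric acid, had 38.3, 91.5 and 158 TPM at 18 g/kg, against 39.8, 166 and 504 TPM in control. All 8 libraries at 18 g/kg were below the control mean, although the lowest values of the groups were alike. The difference was -0.88 ± 0.50 with a 95% interval from -1.93 to 0.16. PPAT, the first committed step of purine synthesis, differed by -0.18 ± 0.28, the folate enzyme SHMT1 by -0.17 ± 0.16, ADA, adenosine deaminase, by 0.23 ± 0.15 and MTHFD2 by 0.57 ± 0.50.

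Lipid genes, the subject of the study's title, showed no difference beyond the spread between libraries. Of 26 tested genes of fatty acid synthesis, 15 were above 0 and 11 below (median 0.03 log2), and 0 had an unadjusted p below 0.05. After median-ratio rescaling 11 of 26 were above 0. FASN, fatty acid synthase, had 23.5, 46.3 and 203 TPM at 18 g/kg, against 18.0, 63.2 and 143 TPM in control (-0.10 ± 0.49). ACACA, acetyl-CoA carboxylase, had 14.5, 31.3 and 100.2 TPM at 18 g/kg, against 8.54, 40.6 and 55.2 TPM in control (-0.02 ± 0.40). Their 95% intervals, -1.14 to 0.94 for FASN and -0.87 to 0.82 for ACACA, do not exclude changes of nearly 1 log2 unit in either direction, and both genes changed sign with some single libraries left out.

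The fatty acid desaturase SCD varied widely within both groups. SCD had 0.98, 2.67 and 190.5 TPM at 18 g/kg, against 0.94, 8.72 and 46.9 TPM in control, so that the group with the lower median held the highest library (-0.34 ± 0.95). ELOVL6, which lengthens fatty acids, had 82.6, 167 and 351 TPM at 18 g/kg, against 39.3, 312 and 510.4 TPM in control (-0.41 ± 0.43). INSIG2 and SCAP, which hold and escort the sterol regulatory factors, differed by -0.25 ± 0.17 and 0.31 ± 0.26.

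Of 32 tested genes of triglyceride synthesis, lipid droplets and lipoproteins, 21 were above 0 and 11 below, with a median of 0.06 log2, but leaving out control replicate 7 gave -0.03 and leaving out 18 g/kg replicate 7 gave -0.04. LPIN1, a phosphatidate phosphatase, had 2.28, 11.4 and 92.0 TPM at 18 g/kg, against 3.73, 24.8 and 200.6 TPM in control (-1.01 ± 0.75). PNPLA3, a lipid droplet lipase, had 15.6, 28.2 and 64.9 TPM at 18 g/kg, against 15.0, 37.4 and 122 TPM in control (-0.52 ± 0.37). The apolipoproteins were among the most abundant transcripts and were better bounded. APOA1 differed by -0.16 ± 0.20 and APOC3 by 0.12 ± 0.13, the second with a 95% interval from -0.17 to 0.40.

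Of 26 tested genes of fatty acid oxidation and ketogenesis, 21 were above 0 and 5 below, beside 55.5% above 0 over all tested genes. The median was 0.09 log2, but leaving out 18 g/kg replicate 7 gave 0.01 and leaving out control replicate 7 gave 0.02. ECI1, an isomerase of unsaturated fatty acid oxidation, had 259 to 370 TPM (median 327) at 18 g/kg, against 170.2 to 421 TPM (median 261) in control (0.28 ± 0.15). CPT2, the inner carnitine palmitoyltransferase, differed by 0.27 ± 0.18. CPT1A and PDK4 lay on the other side of 0. CPT1A, the outer and rate-limiting transferase, had 27.0, 71.2 and 291 TPM at 18 g/kg, against 16.7, 137 and 336 TPM in control (-0.23 ± 0.61). PDK4, a fasting-induced kinase that spares glucose, had 13.9, 39.5 and 117 TPM at 18 g/kg, against 8.96, 84.4 and 316 TPM in control (-0.60 ± 0.65).

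Sterol genes were wide as well. Of 20 tested genes of cholesterol synthesis and uptake 13 were above 0 (median 0.07), and of 14 tested genes of bile acids and sterol export 9 were (median 0.09). Without 18 g/kg replicate 5 the cholesterol median was -0.05, and 6 of 20 genes were above 0. SC5D, a late enzyme of cholesterol synthesis, differed by 0.26 ± 0.15. CYP7A1, the rate-limiting enzyme of bile acid synthesis, had 13.7, 126 and 228 TPM at 18 g/kg, against 11.4, 55.6 and 127 TPM in control, a difference of 0.43 ± 0.63 with overlapping ranges. CYP8B1, which sets the kind of bile acid made, differed by 0.59 ± 0.47, CYP7B1 by -0.24 ± 0.22 and the sterol exporter ABCG5 by 0.20 ± 0.29.

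Glucose genes held 3 of 29 tested members with an unadjusted p below 0.05, beside 2.52% of all tested genes, and the 3 were above control with none passing. Over the 29 tested genes the median was 0.03 log2, with 19 above 0. PFKFB1, the liver form of the enzyme that sets the rate of glycolysis through a fructose bisphosphate signal, had 129, 158 and 233 TPM at 18 g/kg, against 87.9, 114 and 179 TPM in control. All 8 libraries at 18 g/kg were above the control mean (0.45 ± 0.15, limma, unadjusted p = 0.0074), though the ranges overlapped. PYGL, liver glycogen phosphorylase, had 71.8, 79.2 and 115 TPM at 18 g/kg, against 56.2, 66.3 and 87.7 TPM in control (0.31 ± 0.13, 8 of 8).

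ALDOC, an aldolase, had 8.76, 14.4 and 18.5 TPM at 18 g/kg, against 8.15, 9.37 and 19.2 TPM in control (0.39 ± 0.17), and the glucose transporter SLC2A1 differed by 0.28 ± 0.15. PCK1, the cytosolic enzyme that feeds gluconeogenesis and is induced by fasting, could hardly be bounded. It had 1.03, 39.7 and 749.7 TPM at 18 g/kg, against 0.97, 28.0 and 627 TPM in control, and its 95% interval ran from -3.22 to 2.60 log2.

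In the growth hormone, insulin and thyroid axis, 7 of 22 tested genes were above 0 and 15 below, with a median of -0.07 log2. SOCS1, a feedback inhibitor of cytokine and hormone signalling, had 5.59, 9.43 and 12.4 TPM at 18 g/kg, against 7.77, 14.1 and 25.9 TPM in control (-0.59 ± 0.22, limma, unadjusted p = 0.0151). All 8 libraries at 18 g/kg were below the control mean of SOCS1. CISH, a related inhibitor, had 40.0, 75.3 and 141 TPM at 18 g/kg, against 61.5, 96.0 and 230.3 TPM in control (-0.47 ± 0.27). The insulin receptor INSR differed by -0.30 ± 0.20, and IGFBP5 by 0.33 ± 0.20. The growth factor IGF1 had 11.5, 20.6 and 27.2 TPM at 18 g/kg, against 3.0, 21.2 and 33.2 TPM in control, with a 95% interval of the difference from -0.75 to 0.75.

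**Figure D3:**
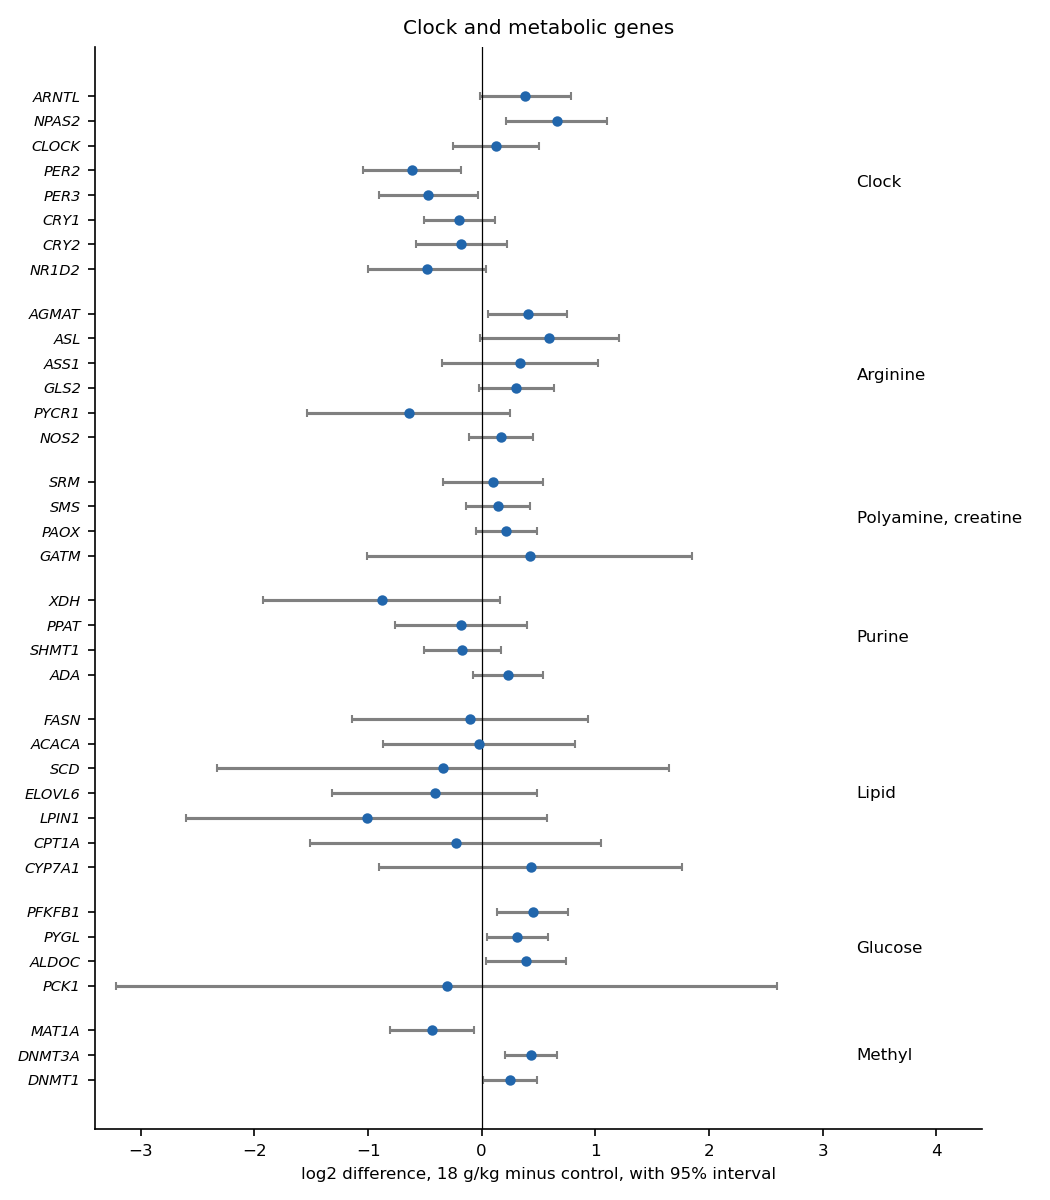
Log2 difference (18 g/kg minus control) with its 95% interval from limma for clock genes and genes of arginine, polyamine, purine, lipid, glucose and methyl metabolism. Intervals of the methyl, PFKFB1 and PYGL genes are narrow, and those of PCK1, SCD and LPIN1 span several log2 units.

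Genes of DNA methylation, methyl supply and chromatin held 3 of 23 tested genes (median 0.04) with an unadjusted p below 0.05, beside 2.52% of all tested genes. Besides DNMT3A these were DNMT1 and MAT1A. DNMT1, which copies methyl marks after DNA replication, had 4.03, 4.64 and 6.78 TPM at 18 g/kg, against 2.75, 4.02 and 4.58 TPM in control (0.25 ± 0.11, 8 of 8 above the control mean). MAT1A, the liver enzyme that makes the methyl donor S-adenosylmethionine, had 468, 766 and 873 TPM at 18 g/kg, against 588, 952 and 1298 TPM in control (-0.44 ± 0.18, 8 of 8 below the control mean). TET3, which oxidises methylcytosine, differed by 0.25 ± 0.14, and the groups overlapped for each of these genes.

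Clock genes had differences of opposite sign according to their role, and none passed the test. In the circadian loop, ARNTL pairs with CLOCK or NPAS2 to switch on the PER, CRY and NR1D genes, whose products then shut the activators off. All 3 tested activators had a difference above 0 (median 0.39), and 11 of 12 repressors and output factors had one below 0 (median -0.16). Over the whole list of 15 tested genes 4 were above 0 and 11 below (median -0.12), beside 55.5% above 0 over all tested genes. Of the 15, 1 averaged under 1 TPM at 18 g/kg and passed the filter only through control. The split by role was made after the values were seen. The labels give no hour of sampling, and its part in these values was not tested.

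NPAS2 had 1.47, 2.59 and 3.46 TPM at 18 g/kg, against 0.33, 1.21 and 2.84 TPM in control (0.66 ± 0.21, limma, unadjusted p = 0.0058, 8 of 8 above the control mean). ARNTL had 5.17, 6.41 and 10.4 TPM at 18 g/kg, against 2.28, 5.44 and 7.99 TPM in control (0.39 ± 0.19), and CLOCK differed by 0.12 ± 0.18. PER2 had 1.21, 2.94 and 5.67 TPM at 18 g/kg, against 2.97, 4.94 and 7.06 TPM in control (-0.61 ± 0.20, 7 of 8 below). The ranges overlapped for NPAS2, ARNTL and PER2.

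PER3 had 0.52, 1.24 and 2.68 TPM at 18 g/kg, against 1.33, 2.14 and 3.78 TPM in control (-0.47 ± 0.21). NR1D2, a nuclear receptor that represses ARNTL, had 4.52, 7.99 and 12.2 TPM at 18 g/kg, against 4.14, 12.2 and 19.7 TPM in control (-0.48 ± 0.25). With any 1 library left out, NPAS2 ran from 0.56 to 0.77, PER2 from -0.72 to -0.50 and NR1D2 from -0.66 to -0.37, and none of the clock genes passed. At 9 g/kg NPAS2 averaged 1.35 TPM, as in control, and PER3 averaged 3.71 TPM, above the 2.31 TPM of control. PER2 averaged 5.47 TPM at 9 g/kg, against 5.01 TPM in control. At 1.8 g/kg NPAS2 averaged 1.93 TPM, PER3 2.005 TPM and PER2 3.46 TPM. Each of these means lay between that at 18 g/kg and that in control.

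Mitochondrial transcripts had a higher median share of the RNA at 18 g/kg, with overlapping groups. The 13 protein genes of the mitochondrial genome summed to 19.3 to 25.1% of a library at 18 g/kg (median 22.4%), against 15.4 to 23.7% in control (median 19.5%). All 13 had a difference above 0, between 0.01 and 0.37 (median 0.20), and 5 had an unadjusted p below 0.05. Over all tested genes 55.5% were above 0 and 2.52% had such a p. After median-ratio rescaling 12 of 13 were above 0 (median 0.17). MT-ND6, a subunit of complex I and the only protein gene on the light strand, had 1423, 1814 and 2454 TPM at 18 g/kg, against 1151, 1336 and 1723 TPM in control (0.37 ± 0.13, 8 of 8 above). MT-ND4L differed by 0.34 ± 0.13, MT-CYTB by 0.29 ± 0.12, MT-ATP8 by 0.25 ± 0.11 and MT-ND5 by 0.23 ± 0.10. MT-ATP8 and MT-ND4L overlap their neighbours on the mitochondrial genome, so the split of reads between them is uncertain. Without these 13 genes in the total, the median of all remaining genes was 0.06 log2.

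Of 74 tested subunits of oxidative phosphorylation (OXPHOS), 71 were above 0 and 3 below, with a median of 0.15 log2, between 0.09 and 0.21 with any 1 library left out. Of these 74, 3 had an unadjusted p below 0.05. Over all tested genes 55.5% were above 0 and 2.52% had such a p. After median-ratio rescaling 69 of the 74 subunits were above 0 (median 0.12). NDUFC2, of complex I, had 149, 158 and 190.5 TPM at 18 g/kg, against 93.9, 134 and 162 TPM in control (0.32 ± 0.11, 8 of 8 above). COX8A, of complex IV, had 116, 152 and 190.5 TPM at 18 g/kg, against 77.8, 113 and 171 TPM in control (0.39 ± 0.16, 8 of 8 above). ATP5L, of the ATP synthase, differed by 0.28 ± 0.13, ATP5E by 0.27 ± 0.13 and SDHA, of complex II, by 0.22 ± 0.12.

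Mitochondrial ribosomal proteins were above 0 in 63 of 73 tested genes (median 0.09), and cytosolic ribosomal proteins in 52 of 71 (median 0.03). Over all tested genes 55.5% were above 0. After median-ratio rescaling 55 of the 73 mitochondrial ones (median 0.06) and 38 of the 71 cytosolic ones (median 0.01) were above 0, beside 49.2% of all tested genes. Without control replicate 7 the cytosolic ones had a median of -0.04, with 16 of 71 above 0, while 62 of the 74 OXPHOS subunits (median 0.10) and 56 of the 73 mitochondrial ribosomal proteins (median 0.07) were above 0. The mitochondrial glutamyl-tRNA synthetase EARS2, which charges the tRNA that GATC acts on, had 2.73, 3.99 and 4.84 TPM at 18 g/kg, against 2.11, 3.07 and 4.07 TPM in control (0.28 ± 0.13). It was the 1 of 34 tested aminoacyl-tRNA synthetases with an unadjusted p below 0.05, beside 2.52% of all tested genes.

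**Figure D4:**
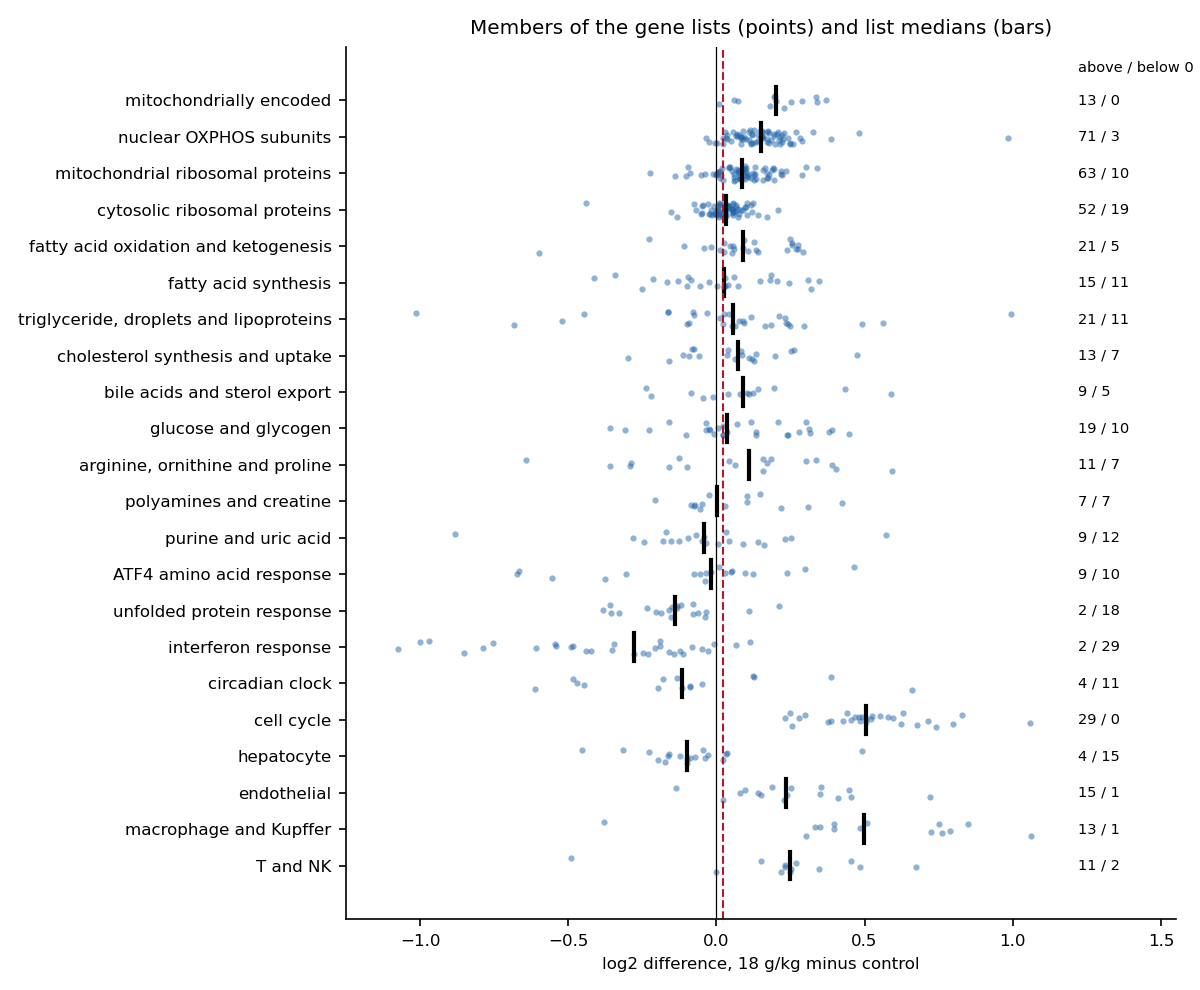
Log2 difference (18 g/kg minus control) of the tested members of 22 gene lists, 1 point a gene, with the list median as a black bar and the median of all tested genes (0.02) as a red dashed line. Numbers at the right count members above and below 0. The interferon, unfolded protein and endothelial medians rest largely on control replicate 7, and the cell cycle median partly on 18 g/kg replicate 5.

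Cell cycle genes had a median of 0.50 log2, and all 29 tested genes were above 0. This count is partly set by the filter, since 4 of the 29 had a control mean under 1 TPM and passed only through the libraries at 18 g/kg, and 5 listed genes stayed below the filter. Their summed level was 115, 186 and 726 TPM at 18 g/kg, against 93.1, 159 and 380.3 TPM in control. At 18 g/kg replicate 5 was the highest library, followed by replicate 2 with 459 TPM, and without replicate 5 the median was 0.28. RRM1, a subunit of ribonucleotide reductase, had 5.92, 7.77 and 25.02 TPM at 18 g/kg, against 4.43, 6.52 and 10.2 TPM in control (0.63 ± 0.27). NUSAP1, a spindle protein, had 0.45, 1.92 and 13.7 TPM at 18 g/kg, against 0.44, 1.07 and 1.7 TPM in control (0.83 ± 0.39). The spindle motors KIF23 and KIF11 differed by 0.58 ± 0.31 and 0.55 ± 0.30, and KIF11 was among the 4. The lowest libraries of the groups were alike for NUSAP1, and the difference lay in a few high libraries at 18 g/kg.

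Interferon response genes were below 0 in 29 of 31 tested genes, with a median of -0.28 log2. Their summed level was 1028 to 3546 TPM at 18 g/kg, against 21984 TPM in control replicate 7 and 1328 to 4293 TPM in the other control libraries. Without control replicate 7 the median was 0.02 and 17 of 31 genes were above 0. OASL, an antiviral protein, had 7.32, 16.6 and 147 TPM at 18 g/kg, against 5.53, 31.8 and 1710 TPM in control (-0.79 ± 0.94). PARP12 and CMPK2, which respond to interferon too, differed by -0.49 ± 0.27 and -0.85 ± 0.56. DDX60, an antiviral helicase, had 1.9, 7.4 and 17.2 TPM at 18 g/kg, against 1.1, 16.1 and 132 TPM in control.

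The same control library was high in stress genes. Unfolded protein response genes were below 0 in 18 of 20 tested genes (median -0.14, and -0.05 without control replicate 7), and their sum was 9165 TPM in that library. The sum was 2610 to 4817 TPM at 18 g/kg, against 3216 to 7856 TPM in the other control libraries. The endoplasmic reticulum chaperones PDIA6, PDIA4 and CALR differed by -0.35 ± 0.21, -0.38 ± 0.24 and -0.36 ± 0.22. CALR was highest in control replicate 7, at 2049 TPM. PDIA6 and PDIA4 were highest in control replicate 3, at 398 and 445 TPM, against 335 and 421 TPM in control replicate 7. Without control replicate 3 they differed by -0.25 and -0.29. Cytosolic heat shock genes were below 0 in 17 of 21 (median -0.10, and -0.01 without control replicate 7).

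Genes of the amino acid response that ATF4 controls were split, with 9 of 19 above 0 (median -0.02). SLC7A5, which carries large neutral amino acids, had 3.45, 5.55 and 8.33 TPM at 18 g/kg, against 1.99, 3.33 and 5.92 TPM in control (0.46 ± 0.18, limma, unadjusted p = 0.0193). PSAT1, of serine synthesis, had 237, 394 and 597 TPM at 18 g/kg, against 251, 548 and 1439 TPM in control (-0.55 ± 0.29, 8 of 8 below the control mean). Control replicate 4 was the highest control library, and without it PSAT1 differed by -0.36. At 18 g/kg, replicates 2 and 5, with 554 and 597 TPM, were above the control median. The alanine aminotransferase GPT2 and the secreted factor STC2 differed by -0.67 ± 0.41 and -0.67 ± 0.50. Antioxidant and xenobiotic genes were above 0 in 20 of 32 (median 0.06). Of these, CYP3A5 had 398, 565 and 1920.5 TPM at 18 g/kg, against 652, 967 and 1352 TPM in control (-0.60 ± 0.25), and GSTZ1 differed by -0.41 ± 0.21.

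Markers of the cell types a liver holds were then read. Hepatocyte markers were below 0 in 15 of 19 tested genes (median -0.10), with ALB at -0.23 ± 0.18 and hemopexin, HPX, at -0.45 ± 0.36. Without control replicate 1, HPX differed by -0.22. The hepatocyte values depend on the scaling. Without the 13 mitochondrially encoded genes in the total their median was -0.05, beside 0.06 for all remaining genes, and 7 of 19 were above 0. After median-ratio rescaling their median was -0.13, and 3 of 19 were above 0. Endothelial markers were above 0 in 15 of 16 (median 0.23, and 0.09 without control replicate 7). LYVE1, a hyaluronan receptor of the liver sinusoids, had 10.8, 20.1 and 28.6 TPM at 18 g/kg, against 2.75, 11.6 and 24.1 TPM in control (0.72 ± 0.29). The sinusoidal scavenger receptors STAB1 and STAB2 differed by 0.41 ± 0.25 and 0.45 ± 0.31. Control replicate 7 was the lowest library of STAB2 and LYVE1, and without it LYVE1 differed by 0.48, STAB1 by 0.24 and STAB2 by 0.14.

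Macrophage and Kupffer cell markers were above 0 in 13 of 14 tested genes, with a median of 0.50 log2, between 0.22 without control replicate 1 and 0.81 without control replicate 3. The receptor MARCO had 10.9, 91.1 and 232.5 TPM at 18 g/kg, against 1.11, 50.9 and 347 TPM in control (1.06 ± 0.85). CD74, which guides antigen presentation, differed by 0.40 ± 0.30. T and NK cell markers were above 0 in 11 of 13 (median 0.25). The T cell kinase ZAP70 had 0.99, 2.36 and 3.98 TPM at 18 g/kg, against 0.86, 1.38 and 2.66 TPM in control (0.48 ± 0.18). CD247, a chain of the T cell receptor complex, differed by 0.45 ± 0.19, its partner CD3E by 0.35 ± 0.21 and granzyme GZMA by 0.67 ± 0.47.

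The interleukin 7 receptor IL7R lay on the other side, with 5.4, 9.41 and 14.7 TPM at 18 g/kg, against 10.6, 12.5 and 21.7 TPM in control (-0.49 ± 0.18, limma, unadjusted p = 0.0152). Of B and plasma cell markers 4 were tested, with 3 above 0 and 1, XBP1, below (-0.15 ± 0.28). JCHAIN, the joining chain of secreted antibodies, had 8.7, 28.6 and 74.5 TPM at 18 g/kg, against 7.29, 14.6 and 33.1 TPM in control (0.76 ± 0.37), and PRDM1, a regulator of plasma cells, differed by 0.29 ± 0.10. PRDM1 averaged 0.876 TPM in control and passed the filter only through the libraries at 18 g/kg. JCHAIN averaged 32.3 TPM at 18 g/kg, 34.1 TPM at 1.8 g/kg and 37.0 TPM at 9 g/kg, against 16.4 TPM in control. The part of immune cell content in the values of LYZ, CD55 and these genes was not tested.

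Heterophil markers were above 0 in 6 of 7 tested genes (median 0.25), and without control replicate 8 their median was -0.11. This count is partly set by the filter, since 2 of the 7 had a control mean under 1 TPM. These 2 passed only through the libraries at 18 g/kg. The summed level of all 7 was 102, 211 and 697 TPM at 18 g/kg, against 142, 345 and 824 TPM in control. Of the 8 libraries at 18 g/kg, 1 was above the control median of that sum. LYG2, the most abundant of them, differed by -0.82 ± 0.44, and CATHB1 was 32.9 TPM in 18 g/kg replicate 1, listed at 0 in the other libraries at 18 g/kg, and at most 0.12 TPM in control. Erythrocyte markers were above 0 in 5 of 10 (median 0.00), cholangiocyte markers in 5 of 7 (median 0.04) and adipocyte markers in 6 of 7 (median 0.06). Of the 7 adipocyte markers, 2 had a control mean under 1 TPM and likewise passed only through the libraries at 18 g/kg. Acute phase and inflammation genes were above 0 in 11 of 30 (median -0.04), and immediate early genes, which respond to handling and stress, in 6 of 14 (median -0.07). Without control replicate 7 these medians were 0.02 and 0.07. In each of these 2 lists, 1 gene averaged under 1 TPM at 18 g/kg and passed the filter only through control.

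Stellate and fibroblast markers were split, with 10 of 18 above 0 (median 0.03). RGS5, a marker of pericytes and smooth muscle of vessels, had 32.2, 57.1 and 80.4 TPM at 18 g/kg, against 49.8, 111 and 191 TPM in control (-0.79 ± 0.27, limma, unadjusted p = 0.0091, 8 of 8 below the control mean). TAGLN, a smooth muscle protein, had 7.17, 14.7 and 109 TPM at 18 g/kg, against 4.76, 10.5 and 15.9 TPM in control (0.80 ± 0.42), and without 18 g/kg replicate 4 it differed by 0.44. ACTA1, skeletal muscle actin, had 0.63, 3.29 and 24.2 TPM at 18 g/kg, against 0.62, 1.09 and 3.49 TPM in control (1.16 ± 0.42). The highest library was again 18 g/kg replicate 4, and without that library ACTA1 differed by 0.82. It was the only skeletal muscle marker tested, and the 9 markers in the table summed to at most 26.1 TPM at 18 g/kg and 5.71 TPM in control.

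The largest fitted differences belonged to ribosomal RNA. The RefSeq table lists 18 short ribosomal RNA rows of the same length on the same chromosome, called copies here although their sequences were not compared. LOC121106976 differed by 4.66 ± 1.70, with a median of 298 TPM and a highest value of 1045 TPM at 18 g/kg, and a median of 0.0 and a highest value of 168 TPM in control. LOC121106993 differed by -3.42 ± 1.90, with a median of 0.0 and a highest value of 586 TPM at 18 g/kg, and a median of 286 TPM and a highest value of 1145 TPM in control. Each library listed 0 to 9 of the 18 copies above 0 at 18 g/kg, and 0 to 11 in control.

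Summed over the 18 copies, the level was 0.0, 2900.1 and 4075 TPM at 18 g/kg, against 0.0, 2876 and 4765 TPM in control. The log2 difference of that sum was -0.06, with 2 libraries below 5 TPM in each group. The 34 long ribosomal RNA rows summed to 3062 to 4250.3 TPM at 18 g/kg and 3297 to 5472 TPM in control, and their log2 differences ran from -0.35 to 0.18. The values of single copies are uncertain, since reads that several copies share can be split between them in any way.

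**Figure D5:**
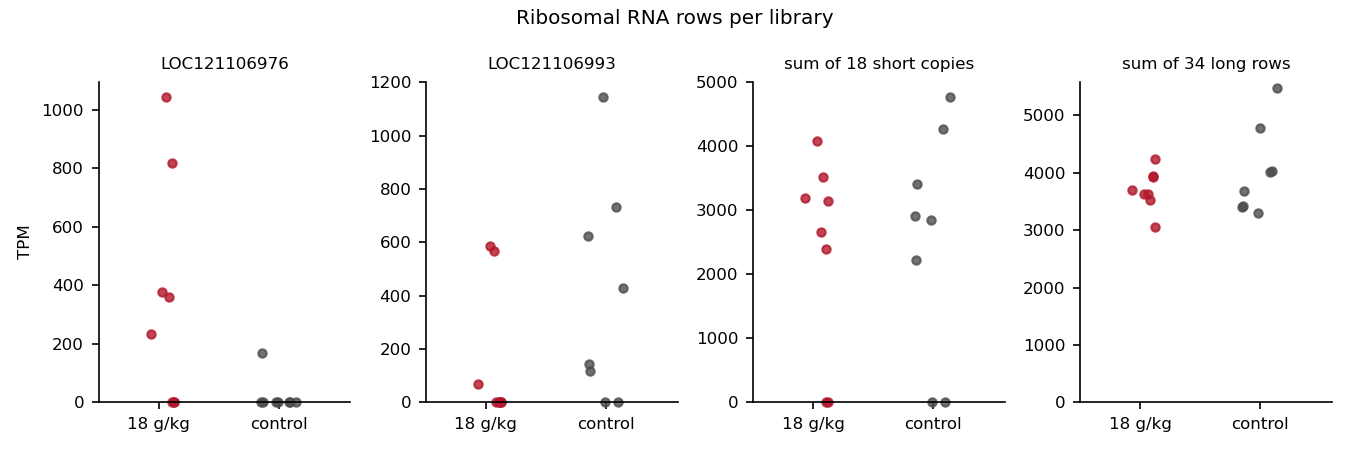
TPM per library of 2 short ribosomal RNA copies, of the sum of all 18 short copies and of the sum of 34 long ribosomal RNA rows, with 18 g/kg (red) left of control (grey), 8 points a group. The single copies are at 0 in most libraries of 1 group, while the ranges of both sums overlap between the groups.

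The second question was whether 18 g/kg differs from the lower added doses. With limma on 32 libraries, 18 g/kg was set against the mean of 1.8 and 9 g/kg, and 0 of 11348 genes (0.0%) were called (lowest adjusted p = 0.9975). At an unadjusted p below 0.05, 304 genes (2.68%) were above 0 and 149 (1.31%) below. The genes were those that passed the filter over the libraries at 18 g/kg and control. A gene could thus enter through its level at 18 g/kg, but not through its level at 1.8 or 9 g/kg. This choice can favour differences above 0, so the counts by direction are not compared. Both questions use the same libraries at 18 g/kg. The genes with the smallest unadjusted p were CDHR5, DENND4C and LOC124417373 above the other doses, and MBD2, FAM84B and CADM3 below them, and none passed.

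CDHR5, a cadherin of the brush border of epithelia, averaged 2.90 ± 2.74 TPM at 18 g/kg, against 0.686 ± 0.702 TPM at 1.8 g/kg and 0.459 ± 0.379 TPM at 9 g/kg (SD, n = 8 each), a log2 difference of 1.13 ± 0.27. Control, at 1.18 ± 1.20 TPM, lay between them. CDHR5 averaged under 1 TPM at both lower doses, which played no part in the filter. Its difference may be partly set by that choice. DENND4C, a factor for Rab proteins, averaged 7.50 ± 3.71 TPM at 18 g/kg, against 4.15 ± 1.83 TPM at 1.8 g/kg and 3.496 ± 0.632 TPM at 9 g/kg (0.76 ± 0.19), and 5.97 ± 2.29 TPM in control. MBD2, which binds methylated DNA, averaged 62.9 ± 9.28 TPM at 18 g/kg, against 78.2 ± 10.3 TPM at 1.8 g/kg and 90.3 ± 18.3 TPM at 9 g/kg (-0.41 ± 0.11), and 58.5 ± 10.2 TPM in control. CADM3 and FAM84B differed by -0.63 ± 0.18 and -0.52 ± 0.14.

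Some genes described above were also read in this comparison. They had been chosen by their values at 18 g/kg against control. The same libraries at 18 g/kg enter here, so the p-values below give no separate support. NPAS2 differed from the lower doses by 0.52 (unadjusted p = 0.0231 in limma), PER3 by -0.62 (unadjusted p = 0.0047 in limma) and MMP24 by -0.31 (unadjusted p = 0.0024 in limma). MT-ND6 differed from the lower doses by 0.17 (unadjusted p = 0.147 in limma). For LYZ this difference was 0.25, for DNMT3A 0.18, for GATC 0.08, for CD55 0.19 and for PIKFYVE -0.29. Their unadjusted p in limma were 0.5257, 0.1126, 0.4728, 0.1757 and 0.1788, in that order. LOC107048987 differed from the lower doses by 0.22 (unadjusted p = 0.0411 in limma). LOC121113083 differed from them by 0.64, but it passed the filter only through the libraries at 18 g/kg. That choice partly set its difference, so no p-value is given for it.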

How the data were processed

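The libraries were stranded Illumina libraries of oligo(dT)-selected mRNA, per the labels' protocols. The submitters' processing notes name the tools HISAT2, RSEM, StringTie and fastp, without versions or roles. The genome build is not given in the sources used here. The authors deposited 1 table of TPM for 32 libraries, 8 per dose, grouped here as the labels give it. The design text counts more liver samples, which were not analysed here. Depth is unknown, so no counting interval is given.

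Of 25619 genes, 25368 matched a symbol and 13 a locus tag in RefSeq assembly GRCg7b, used for names and biotypes, and 238 did not match. Values were log2(TPM + 1), filtered at a mean of 1 TPM over the 16 libraries (both groups together). The fit used limma 3.58.1 in R 4.3.3 (eBayes with trend), with Benjamini-Hochberg adjustment over all tested genes. Intervals are 95% and tests 2-sided. The fit was tested on simulated data, in which the deviations of each gene from its group means were shuffled over libraries separately. Such data lack deviations that many genes of a library share, so the test does not cover these. Alternatives were another pseudocount, filter, scaling and covariate, a replicate block, array weights, all 32 libraries, and each library left out.

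Genes were named by rule, which took those with the smallest unadjusted p, those whose groups do not overlap, the largest differences, up to 4 members of each list with the smallest p, and a fixed set. CD3E, CLOCK, GZMA, MT-ND5, NOS2, NR1D2, OASL, ODC, PDK4, SDHA, SLC25A15 and the sum over short ribosomal RNA copies were added after their values were seen. Some genes the rule names are not reported here. The comparison, gene lists and rules were chosen with earlier results of these data known.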

Additional observations from a re-analysis of the deposited data

Results flagged for a closer look

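In 19 of 236 groups of 8 libraries, each a gene named above in 1 diet, 1 library lay far from the other 7 on the log2 scale. The gap to its nearest neighbour, as a share of the group's whole range, exceeded the 95% critical value of Dixon's test. Chance flags about 1 in 20 groups. At 18 g/kg these were the lowest library of GATC (0.541, replicate 1), of CALR (0.527, replicate 3) and of RGS5 (0.535, replicate 4), and the highest of NDUFC2 (0.553, replicate 7), TAGLN (0.529, replicate 4), CYP3A5 (0.632, replicate 1) and CATHB1 (1.0, replicate 1).

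In control, replicate 7 was the lowest library of ELOVL6 (0.561), ATP5E (0.527), LYVE1 (0.565) and STAB2 (0.604), and the highest of PARP12 (0.535). Control replicate 1 was the lowest library of ACACA (0.617), IGF1 (0.722), PDIA4 (0.573) and NOS2 (0.572), and the 1 control library with LOC121106976 above 0 (1.0). Control replicate 2 was the highest library of ACTA1 (0.574), and control replicate 3 the 1 control library with CATHB1 above 0 (1.0).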

How the results depend on the processing

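In the comparison with control, 0 genes were called in each of the 26 alternatives. The number with an unadjusted p below 0.05 was 286. It was 625 with no filter on low values, 145 with a mean of at least 5 TPM, 825 with array weights and 457 without both control replicate 7 and 18 g/kg replicate 5. With 1 library left out it ran from 212 to 485, the highest without control replicate 3. Against the other added doses it was 453, and 684 after median-ratio rescaling. The causes were not tested. Of 118 named genes, 111 kept their sign in all alternatives. IGF1 was 0.0222 with a pseudocount of 0.1, 0.0535 without mitochondrially encoded genes and 0.0424 with W-linked expression as a covariate. ACACA was 0.0251 without mitochondrially encoded genes and 0.0191 with that covariate. OASL was 0.42 with array weights and 0.19 without control replicate 7 and 18 g/kg replicate 5. With 1 library left out, IGF1 ran from -0.33 to 0.12, ACACA from -0.29 to 0.14, CPT1A from -0.59 to 0.0152, FASN from -0.37 to 0.0801, OASL from -1.17 to -0.01, CATHB1 from -0.0204 to 0.7056 and PCK1 from -0.98 to 0.28. PCK1 was -1.2542 without both control replicate 7 and 18 g/kg replicate 5. With 1 library left out, the difference of 52 of the 118 named genes moved by over 1.5 times. Of 37 gene list medians, 19 changed sign in at least 1 alternative.

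The labels do not say what a replicate number marks. Libraries of the 2 diets with the same number showed no clear pairing, though a weak one could be missed. Their deviations from the group means correlated between -0.213 and 0.146, above 0.1 in 4 of 8 pairs, and 1 of 8 libraries correlated best with its own number. With the replicate number as a block, 0 genes were called and 311 had an unadjusted p below 0.05.

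Depth is unknown and the labels tie no library to a bird. A difference had a typical (median) standard error of 0.17 log2, and the 95% interval of the typical gene extended 0.35 log2 each way.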
